A study of Mus musculus with 46 samples.

Results

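The step from 1 d to 2 d after a single dose of carbon tetrachloride (CCl4) was examined in mouse liver as the 5 arrays of livers taken at 2 d against the 5 arrays of livers taken at 1 d, 10 of the 46 arrays of a time course. Each gene was read from a single probe set, the one with the highest mean over all arrays among those naming only that gene, which gave 18193 genes on the array, of which 13239 passed a filter on low values and were tested. The question is which genes turn on, recover or subside when an injured liver passes from damage into regrowth. All mice were male C57BL/6N, aged 8 to 10 weeks. The 1 d and 2 d groups had received 1.6 g per kg CCl4 in olive oil by a single intraperitoneal injection, and the 5 control arrays came from untreated mice, not from mice given oil. No group carries a transgene or a deletion. RNA of whole liver was converted to labelled cRNA from an oligo-dT primer and hybridised to Affymetrix mouse arrays. The values are log2 expression, so a difference of 1 is a doubling of signal. Nothing in the labels says that arrays of a group came from separate animals, so p-values measure only array-to-array spread, possibly technical, and the number of arrays limits the precision.

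CCl4 is converted to a reactive radical by Cyp2e1 and related enzymes of the hepatocytes around the central vein, which die. The remaining hepatocytes leave quiescence, pass through G1 under cyclin D, copy their DNA in S phase and divide under the control of Cdk1 and the B-type cyclins, while macrophages clear the dead tissue and stellate cells lay down a temporary matrix. Cholesterol and fatty acid synthesis, which the transcription factors SREBP2 and SREBP1 drive, supply membranes and secreted lipid in the normal liver.

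The tissue label held on every array. Alb (albumin) measured 14.76 to 14.85 at 1 d and 14.82 to 14.84 at 2 d. Array correlations within a group were 0.973 to 0.996 at 1 d and 0.983 to 0.994 at 2 d, and no 2 arrays were identical. Arrays 1 and 2 at 1 d stood apart from arrays 3 to 5 in opposite ways. Array 1 had the lowest mean correlation with the control arrays (0.936) and array 2 the highest at 1 d (0.974). At 2 d, arrays 4 and 5 (0.963 and 0.958) were less like the controls than arrays 1 to 3 (0.973 to 0.979). The difference between the 3 prime and 5 prime signals of Gapdh, which reads RNA breakdown, was 0.198 ± 0.035 (SD, n = 5) at 2 d and 0.169 ± 0.092 at 1 d, with an adjusted p of 0.741 by a two-sided exact permutation test over 4 array measures (the smallest unadjusted p that 5 against 5 allows is 0.00794). The control arrays gave 0.347 ± 0.065 for this Gapdh difference, which was not tested against either group. Arrays 1 and 2 at 1 d, or arrays 4 and 5 at 2 d, were also left out. Where this ended the call of a gene named by rule and described in these Results, the value without them is given. The same holds where such a gene or a list count moved by over 1.5 times. List members named beyond the rule have no such value here. Calls that ended under other settings, such as a fit of only the 1 d and 2 d arrays, are given for some genes only.

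Across all genes tested, 4283 of 13239 (32.4%) were called at the step, meaning an adjusted p under 0.05 in limma. Of these, 2301 (17.4%) were higher at 2 d and 1982 (15.0%) were lower. A change of at least 2-fold was seen for 341 called rises (2.58%) and 149 called falls (1.13%). For 914 rises (6.90%) and 748 falls (5.65%), all 5 arrays at 2 d lay beyond all 5 at 1 d. The median change of all genes was near 0 (-0.0037) and the median standard error 0.097 on the log2 scale. Leaving out clone names, the 10 largest called rises with separate arrays were Birc5, Mki67, Rrm2, Ube2c, Ccnb2, Top2a, Ect2, Cenpa, Nusap1 and Mcm5, all genes of DNA replication or division, with log2 changes of 3.44 to 4.91. Among called falls with separate arrays and without clone names, the 10 largest were Nupr1, Pwwp3b, Trib3, Ddit3, Ifrd1, Hspa1b, Srxn1, Mt1, Cyp4a14 and Hsph1, with changes of -3.85 to -2.03, and 8 of these, all but Pwwp3b and Ifrd1, belong to the stress, metal or PPAR alpha lists described further on. Without arrays 1 and 2 at 1 d, Pwwp3b fell by 4.95 and Ifrd1 by 3.07, against 3.46 and 2.47 with them. Hspb1, Snhg12 and Abcc4 fell by more than Hsph1 but had overlapping arrays.

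**Figure D1:**
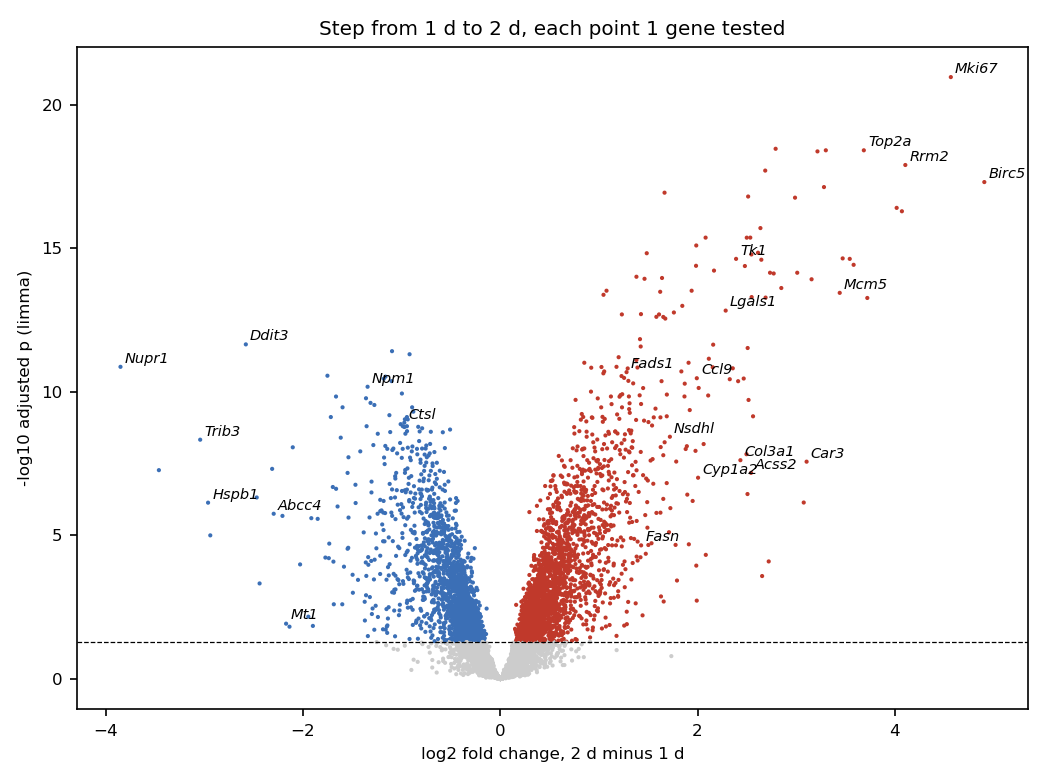
Change of each of the 13239 genes tested from 1 d to 2 d (x axis, log2 fold change) against its adjusted p in limma (y axis, minus log10). Red points are the 2301 genes called higher at 2 d, blue points the 1982 called lower and grey points those not called. The dashed line is the threshold of 0.05. Mki67, Top2a, Rrm2 and Birc5 lie farthest to the upper right and Nupr1 farthest to the left.

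Genes of mitosis and the spindle were near their control level at 1 d and rose together by 2 d. Of 60 genes in the list, 59 were on the array, and fitted without any filter 50 of them were called higher and 0 lower, with a median change of 2.06. The filter kept 45, with 36 called higher, 0 lower and 9 not called, against the 17.4% of all genes called higher. Because some of these genes pass the filter only through the 2 d arrays, the count was repeated over the 37 that pass on the arrays of the other groups alone, of which 28 were called higher. Against the untreated controls, 36 of the 45 were higher at 2 d (all genes 21.1%) and 1 was higher at 1 d (all genes 25.0%). In either direction, 40.1% of all genes differed from control at 2 d and 50.0% at 1 d. The step and both comparisons with control share arrays, so they are given side by side only.

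Mki67, the proliferation marker Ki-67, measured 4.15, 4.65, 4.63, 4.40 and 4.73 on arrays 1 to 5 at 1 d and 9.57, 8.02, 9.53, 9.34 and 8.94 at 2 d. The groups did not overlap, all 1 d arrays lay within or below the control range of 4.65 to 5.31, and the change was 4.57 ± 0.19 (log2, SE, n = 5 arrays a group), 23.7-fold, with an adjusted p of 1.08e-21. Birc5 (survivin, a subunit of the chromosomal passenger complex) measured 4.24, 4.39, 4.24, 4.34 and 4.59 at 1 d and 10.27, 7.78, 10.19, 9.24 and 8.87 at 2 d. Its rise of 4.91 ± 0.27 was the largest of all genes tested (adjusted p 4.88e-18). Cdk1, the kinase that starts mitosis, measured 6.53, 7.19, 6.69, 6.85 and 6.82 at 1 d and 10.27, 8.89, 10.73, 10.19 and 10.08 at 2 d, a rise of 3.22 ± 0.17 (adjusted p 4.17e-19). Its cyclin partner Ccnb2 rose by 3.72 ± 0.28 and ranged from 6.85 on array 2 to 9.87 on array 3 at 2 d. For each of these 4 genes array 2 was the lowest at 2 d, and still above every 1 d array.

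The called genes act at several stages of division. Ube2c, the ubiquitin-conjugating enzyme of the anaphase-promoting complex, rose by 4.02, Cenpa, the centromeric histone, by 3.54, Nusap1, a spindle microtubule protein, by 3.47, and Ect2, which directs cytokinesis, by 3.58. Aurka and Aurkb, the Aurora kinases, rose by 2.77 and 2.50, Plk1 by 1.91, the condensin subunits Smc2 and Smc4 by 2.65 and 2.55, and the checkpoint gene Mad2l1 by 2.51. The mean level of the 45 genes against control was -0.21, -0.04, -0.17, -0.14 and -0.09 on arrays 1 to 5 at 1 d and 2.37, 1.14, 2.40, 1.98 and 1.75 at 2 d. Array 2 was thus the lowest at 2 d over the whole list as well.

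The other probe sets of the 9 genes not called were examined after these values were seen. Of these genes, 8 had another probe set, and for 7 of them it was called higher. Tpx2, which activates Aurora A on the spindle, changed by -0.02 in the probe set of highest mean and by 2.40 ± 0.21 in another (adjusted p 2.90e-12). Cdca3 went from -0.03 to 3.25, Kif2c from 0.02 to 2.79, Cenpf from 0.04 to 2.11 and Tacc3 from 0.16 to 2.34 in the same way. Cdc20, the activator of the anaphase-promoting complex, was called at 1.02 with the probe set used and reached 4.68 in another. Pttg1 (securin) was called by none of its probe sets, and Kif15 had no other. Foxm1, which drives transcription of mitotic genes, was not called (0.15, 95% interval 0.03 to 0.27, adjusted p 0.0566), was called without arrays 1 and 2 at 1 d (0.18, adjusted p 0.0401) and without arrays 4 and 5 at 2 d (0.22, adjusted p 0.00705), while its probe sets ranged from 0.05 to 0.78.

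**Figure D2:**
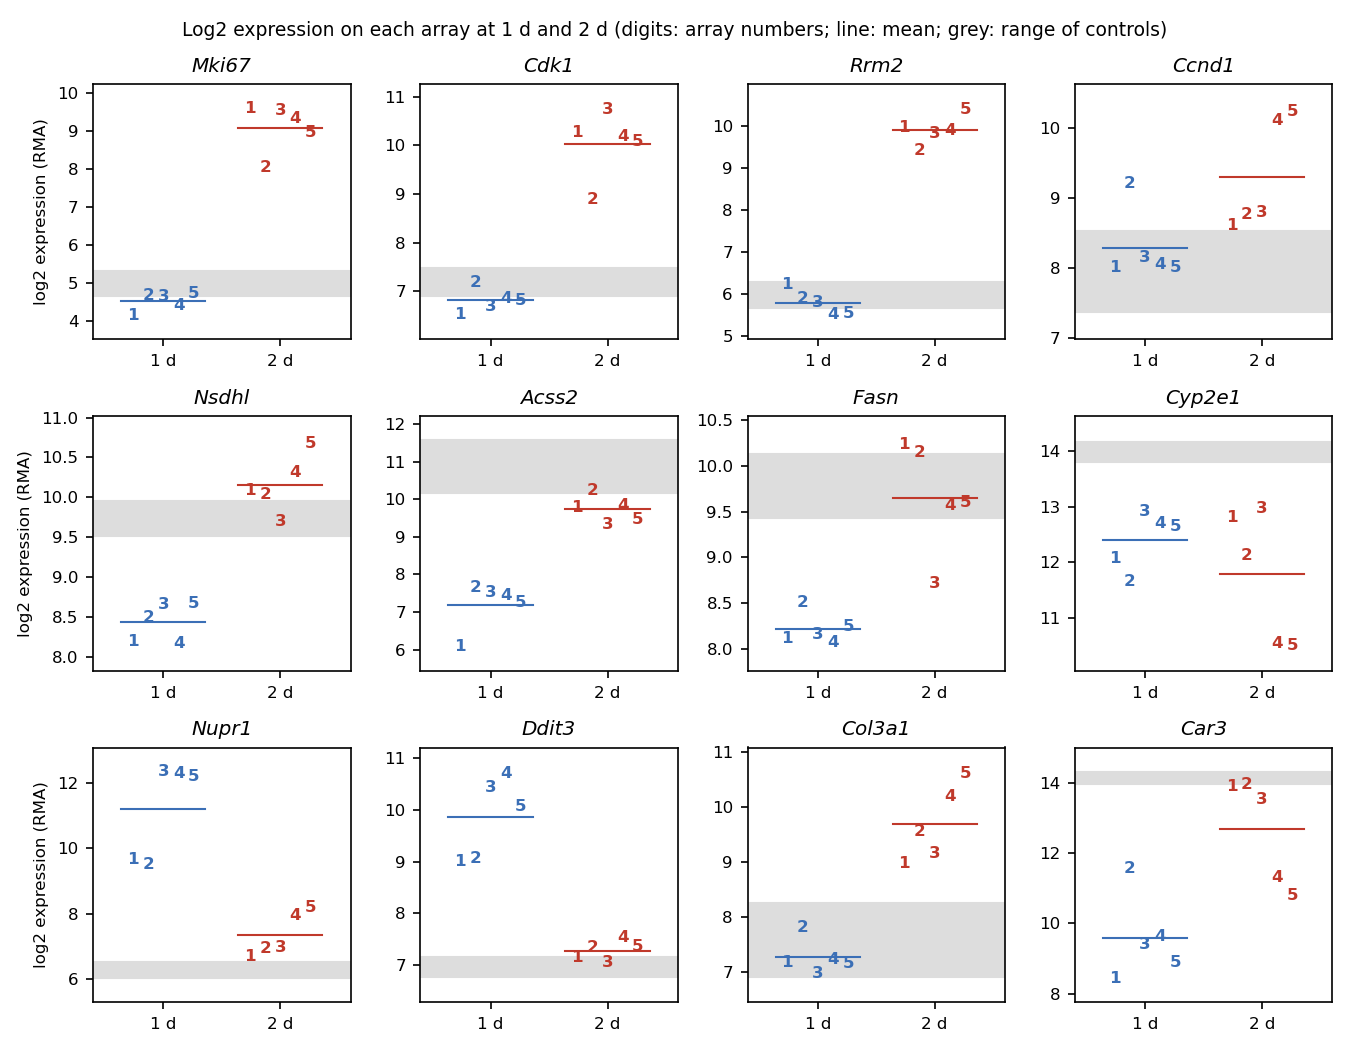
Log2 expression of 12 genes (y axes) on each array at 1 d (blue) and 2 d (red). Digits are array numbers, lines are group means and grey bands the range of the 5 control arrays. Mki67, Cdk1, Rrm2, Nsdhl, Acss2, Fasn, Nupr1, Ddit3 and Col3a1 do not overlap between the groups, whereas Ccnd1, Cyp2e1 and Car3 do, with arrays 4 and 5 at 2 d apart from arrays 1 to 3.

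The mitosis and replication genes that rose together can be read beside their promoters, the 250 bases before the RefSeq start in build GRCm38.p6. The printed strand is that of the gene, 5′ to 3′. Birc5 and Rrm2 are shown as the largest rises of their lists, and Mki67 because its window holds both CCAAT and TTTGAA. Capitals mark matches on either strand of CCAAT (the CCAAT box, ATTGG on the opposite strand) and TTTGAA (the cell cycle genes homology region, CHR, a repressive element of late cell cycle genes, searched on both strands). The Birc5 window is chr11:117848987-117849236 (+), the Mki67 window chr7:135716380-135716629 (-) and the Rrm2 window chr12:24708004-24708253 (+).
Birc5: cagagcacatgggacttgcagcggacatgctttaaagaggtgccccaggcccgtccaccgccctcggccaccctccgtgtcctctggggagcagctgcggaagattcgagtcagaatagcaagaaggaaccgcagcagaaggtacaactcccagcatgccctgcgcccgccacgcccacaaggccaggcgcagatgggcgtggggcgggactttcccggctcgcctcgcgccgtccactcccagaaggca
Mki67: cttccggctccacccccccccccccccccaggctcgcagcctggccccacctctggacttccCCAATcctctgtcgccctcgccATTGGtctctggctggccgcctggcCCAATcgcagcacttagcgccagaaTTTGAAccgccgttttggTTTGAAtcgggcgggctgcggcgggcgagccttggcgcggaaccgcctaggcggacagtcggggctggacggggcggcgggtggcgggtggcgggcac
Rrm2: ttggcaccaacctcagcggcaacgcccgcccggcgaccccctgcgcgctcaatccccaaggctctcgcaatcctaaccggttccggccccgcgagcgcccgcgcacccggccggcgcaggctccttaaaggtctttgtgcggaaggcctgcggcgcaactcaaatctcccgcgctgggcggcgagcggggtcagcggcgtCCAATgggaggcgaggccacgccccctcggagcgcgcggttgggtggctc

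In the Mki67 window TTTGAA occurred at 116 to 111 and 98 to 93 bases before the start, and CCAAT boxes at 188 to 184, 166 to 162 (opposite strand) and 141 to 137. Rrm2 had a CCAAT box at 50 to 46, and Birc5 had no match in this window. Of 54 promoters of 51 mitosis genes, 64.8% held CCAAT and 38.9% held TTTGAA, beside 33.8% and 16.0% of all 32851 promoters of the same length. Of 43 promoters of S phase genes, 55.8% held CCAAT and 11.6% TTTGAA. The E2F motifs TTTCCCGC and TTTGGCGC were each found in 3 of the 43 S phase promoters (6.98%), beside 0.895% and 0.417% of all promoters. No motif searched overlaps another in its letters. These shares describe the windows and name no site of binding.

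Genes of DNA replication and S phase rose as well, from a level slightly above control. Of 46 genes, 43 were on the array, with 34 called higher and 0 lower without a filter (median 1.09). Of the 39 that passed the filter, 32 (82.1%) were called higher, beside 17.4% of all genes, 0 lower and 7 not called. The median was 1.12. At 1 d 12 of the 39 were above control (all genes 25.0%) and 4 below (all genes 25.1%). At 2 d 33 were above (all genes 21.1%) and 2 below (all genes 18.9%). Rrm2, the inducible subunit of ribonucleotide reductase, measured 6.23, 5.91, 5.81, 5.51 and 5.53 at 1 d and 9.97, 9.43, 9.84, 9.89 and 10.40 at 2 d. The groups were far apart and the change was 4.11 ± 0.22 (17.2-fold, adjusted p 1.24e-18). Mcm5, of the replicative helicase, measured 5.67, 7.03, 4.61, 5.45 and 5.30 at 1 d and 8.84, 8.84, 8.55, 9.25 and 9.80 at 2 d (3.44 ± 0.26). Array 2 was the highest at 1 d and array 5 the highest at 2 d.

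Other replication genes followed. Mcm4, Mcm7, Mcm2 and Mcm6 rose by 2.11, 1.69, 1.12 and 1.00, the primase gene Prim1 by 2.17 ± 0.15, thymidine kinase Tk1 by 2.39 ± 0.16, and the clamp loader gene Rfc4 by 1.99. Pcna, the sliding clamp, stood at 10.46, 9.59, 9.48, 9.58 and 9.53 at 1 d, already above the control range of 8.75 to 8.90, and at 10.53, 10.61, 10.41, 11.21 and 11.63 at 2 d. Its rise was 1.15 ± 0.16 (adjusted p 1.72e-07), and array 1 at 1 d overlapped array 3 at 2 d. Of the 7 genes not called, all had another probe set and 6 were called higher with it, among them Prim2 (1.19), Fen1 (1.09) and Cdc45 (0.72). The list's mean against control was 0.29, 0.34, 0.03, 0.14 and 0.13 at 1 d and 1.13, 1.21, 1.09, 1.43 and 1.84 at 2 d. Array 5 at 2 d was the highest for replication and array 3 for mitosis, so the 2 lists did not order the 2 d arrays alike.

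Genes of G1 and its exit were more mixed. Of 21 tested, 10 (47.6%) were called higher and 1 (4.76%) lower (median 0.29), beside 17.4% and 15.0% of all genes. Ccna2, the S and G2 cyclin, rose by 2.61 ± 0.17, and the E2F-controlled genes Rbl1 (p107) by 1.89 ± 0.22 (2.51 without arrays 1 and 2 at 1 d) and E2f8 by 1.65 ± 0.20. The G1/S cyclin Ccne2 rose by 1.22 ± 0.21 from a level that was already above control at 1 d (by 1.27). Ccnd1, cyclin D1, measured 8.01, 9.21, 8.15, 8.05 and 8.00 at 1 d and 8.60, 8.77, 8.79, 10.11 and 10.23 at 2 d. Only arrays 4 and 5 at 2 d lay above array 2 at 1 d. The change was 1.01 ± 0.24 (adjusted p 0.000948), and without arrays 4 and 5 it was 0.43 with an adjusted p of 0.14. Ccne1 was called at 0.43, and without array 5 at 2 d its adjusted p was 0.0805. Ccne1 was also not called without arrays 1 and 2 at 1 d (0.23, adjusted p 0.209) or without arrays 4 and 5 at 2 d (0.20, adjusted p 0.226). Myc was 4.31-fold above control at 1 d and fell by 0.84 ± 0.32 at the step (adjusted p 0.0396), a call that ended when any of 7 single arrays was left out (1 d arrays 3, 4 and 5 and 2 d arrays 1, 3, 4 and 5; adjusted p 0.056 to 0.124). Without arrays 4 and 5 at 2 d the adjusted p of Myc was 0.134, and the G1 list then had 0 genes called lower.

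Of 18 genes of CDK inhibitors and p53 targets, 5 (27.8%) were called higher and 3 (16.7%) lower, beside 17.4% and 15.0% of all genes, with a median of 0.08. Cdkn1a (p21) measured 8.86, 8.52, 8.00, 7.66 and 7.79 at 1 d and 7.88, 7.76, 8.24, 7.99 and 8.48 at 2 d, above the control range of 6.34 to 6.47 on all 10 arrays. Its change was -0.10 (95% interval -0.69 to 0.50, adjusted p 0.849). Cdkn2c (p18) rose by 1.94 ± 0.14 with no overlap of the arrays. Trp53inp1, a p53-induced stress gene, fell by 1.54 ± 0.28, and Gadd45a fell by 1.16 ± 0.39 (adjusted p 0.0191; 0.075 without arrays 1 and 2 at 1 d).

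Few genes of the signals that start hepatocyte division were called. Of 26 mitogens, receptors and feedback genes tested, 2 (7.69%) were called higher and 3 (11.5%) lower, beside 17.4% and 15.0% of all genes. Without arrays 1 and 2 at 1 d 6 were lower. Hgf, the hepatocyte growth factor made by stellate and endothelial cells, measured 5.42 to 5.81 at 1 d and 5.91 to 6.47 at 2 d and rose by 0.58 ± 0.11 (adjusted p 9.30e-05). Inhba rose by 0.44. Tgfa fell by 0.46 ± 0.14 (adjusted p 0.00933, and 0.060 without arrays 4 and 5 at 2 d). The YAP target Ccn2 fell by 1.06 ± 0.25, and Fgf21, a hepatokine of stressed liver, by 1.32 ± 0.33. Egfr and Met, the main growth factor receptors of hepatocytes, were not called (0.61 and -0.16).

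Cholesterol synthesis returned at this step. Of 25 genes in the list, 20 were on the array and all 20 were tested. Of these, 17 (85%) were called higher and 0 lower, beside 17.4% and 15.0% of all genes. The remaining 3 were not called, and the median change was 0.97. At 1 d, 15 of the 20 were below control (all genes 25.1%) and 0 above, with a median of -1.12. At 2 d, 4 were below (all genes 18.9%) and 4 above (all genes 21.1%), with a median of 0.28. Nsdhl, a sterol dehydrogenase, measured 8.19, 8.49, 8.67, 8.18 and 8.68 at 1 d, all below the control range of 9.52 to 9.96, and 10.08, 10.04, 9.70, 10.32 and 10.67 at 2 d. The groups did not overlap, the change was 1.72 ± 0.20 (3.29-fold, adjusted p 3.64e-09), and 4 of the 2 d arrays lay above the control range. Hmgcs1, which makes HMG-CoA, measured 10.63, 11.02, 10.61, 9.97 and 10.20 at 1 d and 11.98, 12.02, 11.38, 12.91 and 12.69 at 2 d, a rise of 1.71 ± 0.29 (adjusted p 7.70e-06).

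Enzymes of early and late steps of the pathway rose. Fdft1 (squalene synthase) rose by 1.49, Pmvk by 1.40, Fdps by 1.36, Sc5d by 1.33, Lss by 1.10 and Cyp51 by 0.97. Dhcr7, the last step to cholesterol, rose by 1.69 ± 0.23. Insig1, the sterol-regulated brake on SREBP processing, rose by 0.88 ± 0.25 (adjusted p 0.00459), and by 0.70 with an adjusted p of 0.056 without arrays 4 and 5 at 2 d. Sqle (squalene epoxidase) was not called (0.45, 95% interval -0.02 to 0.93), and unlike most of the list its mean at 1 d differed from control by -0.01. Srebf2 itself was not called either (-0.04, interval -0.18 to 0.11), which says nothing of the processing of its protein. The list's mean against control was -0.83, -0.67, -0.87, -1.11 and -0.97 at 1 d and -0.05, 0.15, -0.39, 0.43 and 0.47 at 2 d. Arrays 4 and 5 were the highest and array 3 the lowest at 2 d, and all 5 lay above every 1 d array.

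Fatty acid and triglyceride synthesis rose too, and stayed below control for more of its genes. Of 27 genes, 26 were on the array and tested. Of these, 18 (69.2%) were called higher and 0 lower, beside 17.4% and 15.0% of all genes, and 8 were not called (median 0.78). At 1 d, 23 were below control (median -1.12, all genes 25.1%), and at 2 d 9 were (median -0.19, all genes 18.9%). Fasn, fatty acid synthase, measured 8.12, 8.51, 8.16, 8.08 and 8.25 at 1 d and 10.23, 10.15, 8.72, 9.56 and 9.59 at 2 d (1.43 ± 0.26, adjusted p 2.21e-05). Arrays 1 and 2 at 2 d reached the top of the control range of 9.43 to 10.13, and array 3 stayed below it. Acss2, which makes acetyl-CoA from acetate, was 12.4-fold below control at 1 d, at 6.08, 7.66, 7.51, 7.44 and 7.25, and measured 9.78, 10.23, 9.34, 9.85 and 9.46 at 2 d. It rose by 2.54 ± 0.33 (adjusted p 6.59e-08) and was still 2.12-fold below control. Thrsp, the Spot 14 lipogenic regulator, rose by 2.66 ± 0.57 and was higher on arrays 1 and 2 (11.09 and 11.20) than on arrays 3 to 5 (8.69 to 9.13).

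Among the regulators, Srebf1 rose by 1.01 ± 0.24 and Mlxipl (ChREBP), the glucose-responsive factor, by 0.89 ± 0.15. The enzymes Acaca and Acly rose by 1.06 ± 0.19 and 0.96 ± 0.25, the elongase Elovl6 by 0.99 ± 0.27 and the desaturases Fads1 and Fads2 by 1.28 ± 0.12 and 1.07. Scd1, the stearoyl-CoA desaturase, rose by 0.47 ± 0.13 and remained 2.29-fold below control, and without arrays 4 and 5 at 2 d its adjusted p was 0.074. Dgat1, Dgat2, Pparg, Me1, Lpin1, Elovl5, Scd2 and Pnpla3 were not called, and of these Scd2 was called higher in another probe set (1.63). The list's mean against control was -1.29, -0.89, -1.17, -1.20 and -1.17 at 1 d and -0.19, -0.03, -0.64, -0.50 and -0.48 at 2 d. Every 2 d array was above every 1 d array.

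Nsdhl and Thrsp had the largest rises of the cholesterol and fatty acid lists, and their upstream windows are printed with that of Hmgcs1, whose window holds a sterol response element. Capitals mark CCAAT or ATTGG, and in Hmgcs1 also TCACCCCAC, a match to TCACNCCAC (the sterol response element, bound by SREBP). The windows are chrX:72918271-72918520 (+) for Nsdhl, chr13:119690101-119690350 (+) for Hmgcs1 and chr7:97417551-97417800 (-) for Thrsp, again in GRCm38.p6 from RefSeq.
Nsdhl: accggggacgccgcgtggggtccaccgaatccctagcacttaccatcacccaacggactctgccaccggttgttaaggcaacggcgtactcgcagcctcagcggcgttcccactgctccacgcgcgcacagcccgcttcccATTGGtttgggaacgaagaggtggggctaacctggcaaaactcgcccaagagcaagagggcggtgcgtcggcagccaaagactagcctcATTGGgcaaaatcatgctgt
Hmgcs1: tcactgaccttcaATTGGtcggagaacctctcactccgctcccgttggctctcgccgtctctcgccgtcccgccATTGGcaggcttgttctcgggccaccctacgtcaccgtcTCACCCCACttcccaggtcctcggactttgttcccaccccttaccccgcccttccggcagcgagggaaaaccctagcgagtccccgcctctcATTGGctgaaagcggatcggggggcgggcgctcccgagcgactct
Thrsp: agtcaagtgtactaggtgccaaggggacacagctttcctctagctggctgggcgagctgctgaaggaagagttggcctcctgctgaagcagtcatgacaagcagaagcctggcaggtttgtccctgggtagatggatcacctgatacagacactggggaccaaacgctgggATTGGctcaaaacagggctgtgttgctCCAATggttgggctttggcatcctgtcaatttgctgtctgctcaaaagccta

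The Hmgcs1 window held the sterol response element at 137 to 129 bases before the start and ATTGG at 237 to 233, 176 to 172 and 45 to 41. Nsdhl held ATTGG at 109 to 105 and 20 to 16, and Thrsp held ATTGG at 79 to 75 and CCAAT at 52 to 48. Of 19 promoters of cholesterol genes, 84.2% held a CCAAT box, beside 33.8% of all promoters. The sterol element was in 1 of the 19 (5.26%), that of Hmgcs1, which was printed because it holds it. Of all promoters 1.05% held it. Of 30 promoters of fatty acid genes, 50% held a CCAAT box and 1 (3.33%) the sterol element. The E-box CACGTG, searched as well, was found in 4 of the cholesterol promoters (21.1%), in 3 of the fatty acid promoters (10%) and in 6.02% of all promoters. Where the sterol element is absent, only these letters are absent from this window.

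Genes of fat burning and storage had mixed calls. Of 20 genes of fatty acid oxidation and PPAR alpha targets, 7 (35%) were called higher and 5 (25%) lower, beside 17.4% and 15.0% of all genes. Without arrays 4 and 5 at 2 d 10 were higher and 2 lower. The list's mean against control was -0.54 and -0.67 on those arrays and -0.06 to 0.08 on arrays 1 to 3. Ppara rose by 0.68 ± 0.24 (adjusted p 0.0238), a call that ended without 1 d array 3 or 4 or 2 d array 2 (adjusted p 0.078, 0.057 and 0.063). Cyp4a14, an inducible fatty acid hydroxylase, measured 11.48, 11.02, 11.31, 11.24 and 10.90 at 1 d and 10.24, 9.85, 9.45, 8.15 and 7.56 at 2 d. It fell by 2.14 ± 0.70 (adjusted p 0.0151), with arrays 4 and 5 the lowest at 2 d, and without array 5 the adjusted p was 0.060. Without both arrays the change was -1.34 (adjusted p 0.21). Cpt1a, the gate of mitochondrial oxidation, was not called (0.38, interval 0.03 to 0.74), and without array 2 at 1 d it was (0.55, adjusted p 0.0102). Of 22 genes of lipid droplets and triglyceride handling, 5 were called higher and 5 lower (22.7% each, beside 17.4% and 15.0% of all genes). Plin2, which coats lipid droplets, fell by 1.06 ± 0.20 from 12.24 to 13.62 at 1 d to 11.36 to 11.75 at 2 d. The lipid uptake genes Lpl and Cd36 were called at 0.76 and 0.89, and without arrays 4 and 5 at 2 d at 0.05 and 0.50 (adjusted p 0.92 and 0.076). The call of Lpl also ended without arrays 1 and 2 at 1 d together (0.61, adjusted p 0.176) and when 1 d array 1, 2 or 3 or 2 d array 4 or 5 was left out (adjusted p 0.0585 to 0.223).

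Genes of the mature hepatocyte were below control at 1 d and a large share of them recovered in part. Of 24 genes of cytochrome P450 and drug metabolism, 12 (50%) were called higher and 1 (4.17%) lower (median 0.48), beside 17.4% and 15.0% of all genes. The number below control was 21 at 1 d (all genes 25.1%) and 11 at 2 d (all genes 18.9%). The glutathione transferase Gsta3 measured 10.48 to 10.85 at 1 d and 11.64 to 12.30 at 2 d (1.39 ± 0.13), Cyp2c55 rose by 1.84 ± 0.17, Cyp3a25 by 1.13 ± 0.20 and Fmo5 by 1.39 ± 0.27. Cyp3a13 fell (-0.91). The list's mean against control was -1.36 to -0.97 at 1 d and -0.31, -0.46, -0.32, -0.85 and -0.87 at 2 d, with arrays 4 and 5 the lowest. Of 24 genes of bile acid synthesis and transport, 12 (50%) were called higher and 1 (4.17%) lower (median 0.66), against the same shares of all genes. Cyp7a1, which controls the rate at which bile acids are made from cholesterol, rose by 1.99 ± 0.51 and overlapped between groups, because array 2 at 1 d (8.07) was above array 4 at 2 d (6.18). Without arrays 4 and 5 at 2 d its rise was 2.72. Without arrays 1 and 2 at 1 d, 2 genes of the P450 list and 2 of the bile acid list were called lower. Abcc4, an export pump of the basolateral membrane, fell by 2.30 ± 0.35, and without arrays 1 and 2 at 1 d, which measured 6.46 and 6.54 against 9.08 to 9.64 on the others, by 3.45.

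Calls among genes of the 2 ends of the lobule depended on which arrays were kept. Of 19 genes of pericentral hepatocytes, the cells that CCl4 kills, 5 (26.3%) were called higher and 2 (10.5%) lower, beside 17.4% and 15.0% of all genes, and 16 were below control at both times. Without arrays 4 and 5 at 2 d 8 were higher and 1 lower, and without arrays 1 and 2 at 1 d 3 were higher and 4 lower. Cyp2e1, the enzyme that activates CCl4, measured 12.07, 11.65, 12.91, 12.69 and 12.65 at 1 d and 12.80, 12.11, 12.96, 10.54 and 10.51 at 2 d. It was not called (-0.61, interval -1.15 to -0.07, adjusted p 0.0775), arrays 4 and 5 at 2 d were the lowest of all 10, and the control range was 13.81 to 14.17. Without arrays 1 and 2 at 1 d Cyp2e1 was called lower (-0.96, adjusted p 0.00824), as it was without 1 d array 2 or 2 d array 1 or 3 alone, and without arrays 4 and 5 at 2 d its change was 0.23. Cyp1a2 rose by 2.01 ± 0.27 with no overlap and Rgn by 1.42 ± 0.27. Without arrays 1 and 2 at 1 d they rose by 1.41 and 0.75, and array 1 had the lowest Rgn value of that group (8.53). The Rgn call ended with only the 1 d and 2 d arrays in the fit. Glul (glutamine synthetase), of the innermost pericentral cells, was called at 0.52 ± 0.18 and remained 4.84-fold below control, and leaving out 1 d array 1 or 2 or 2 d array 1 or 2 gave adjusted p of 0.081 to 0.112, and without 1 d arrays 1 and 2 the change was 0.22 (adjusted p 0.428). Oat fell further, by 1.15 ± 0.25. Of 16 periportal and urea cycle genes, 7 (43.8%) were called higher and 1 (6.25%) lower (median 0.37), beside 17.4% and 15.0% of all genes. Without arrays 4 and 5 at 2 d 11 were called higher. Aldh1b1 rose by 1.91 ± 0.34. Pck1, of gluconeogenesis, fell by 1.34 ± 0.49, from 11.56 to 12.08 on 4 arrays and 7.63 on array 1 at 1 d to 8.79 to 10.62 at 2 d. Without array 1 the change was -2.19 (adjusted p 3.86e-06), and without arrays 1 and 2 at 1 d it was -2.23 (adjusted p 1.02e-05). Leaving out any other single 1 d array, or 2 d array 1, 2 or 3, ended the call (adjusted p 0.053 to 0.114).

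Car3 (carbonic anhydrase 3), listed here with adipose and mesothelial markers and strongly expressed in male liver, measured 8.44, 11.57, 9.40, 9.63 and 8.87 at 1 d and 13.88, 13.94, 13.54, 11.30 and 10.78 at 2 d. Arrays 1 to 3 at 2 d were near the control range of 13.98 to 14.32, arrays 4 and 5 were not, and the rise was 3.11 ± 0.39 (adjusted p 2.69e-08), 8.61-fold, or 18.4-fold without arrays 4 and 5. It was the only one of 4 tested genes of that list that was called. Upp2, a liver uridine phosphorylase, was 87.3-fold below control at 1 d and rose by 2.72 ± 0.53. Of 23 genes of hepatocyte transcription factors and secreted proteins, 9 (39.1%) were called higher and 1 (4.35%), Tat, lower (median 0.21), beside 17.4% and 15.0% of all genes. Tat, a hormone-induced aminotransferase, changed by -0.85, and without array 2 at 1 d the adjusted p was 0.0562. In this list 2 genes were called lower without arrays 1 and 2 at 1 d. F7 rose by 0.84 ± 0.11, Ghr by 0.78 ± 0.18, Cebpa by 0.58 and Hnf4a by 0.41. The Ghr call ended with only the 1 d and 2 d arrays in the fit. Respiratory chain subunits rose by small amounts, with 20 of 32 (62.5%) called higher and 0 lower (median 0.24), beside 17.4% and 15.0% of all genes. The number called higher was 3 to 25 over the alternative settings of the analysis. At 1 d 29 were below control (all genes 25.1%) and at 2 d 19 were (all genes 18.9%). Ndufa8, Ndufs1, Ndufb10 and Sdhd rose by 0.53 to 0.56. Among male-biased genes 2 of 11 (18.2%) were called higher and 1 (9.09%) lower, with all 11 below control at 2 d. Among female-biased genes 2 of 8 (25%) were called higher and 1 (12.5%) lower. The shares of all genes were 17.4% and 15.0%. With arrays 1 and 2 at 1 d left out 0 male-biased genes were called higher and 3 lower, and 0 female-biased genes were lower. A single female-biased gene was higher without arrays 4 and 5 at 2 d.

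**Figure D3:**
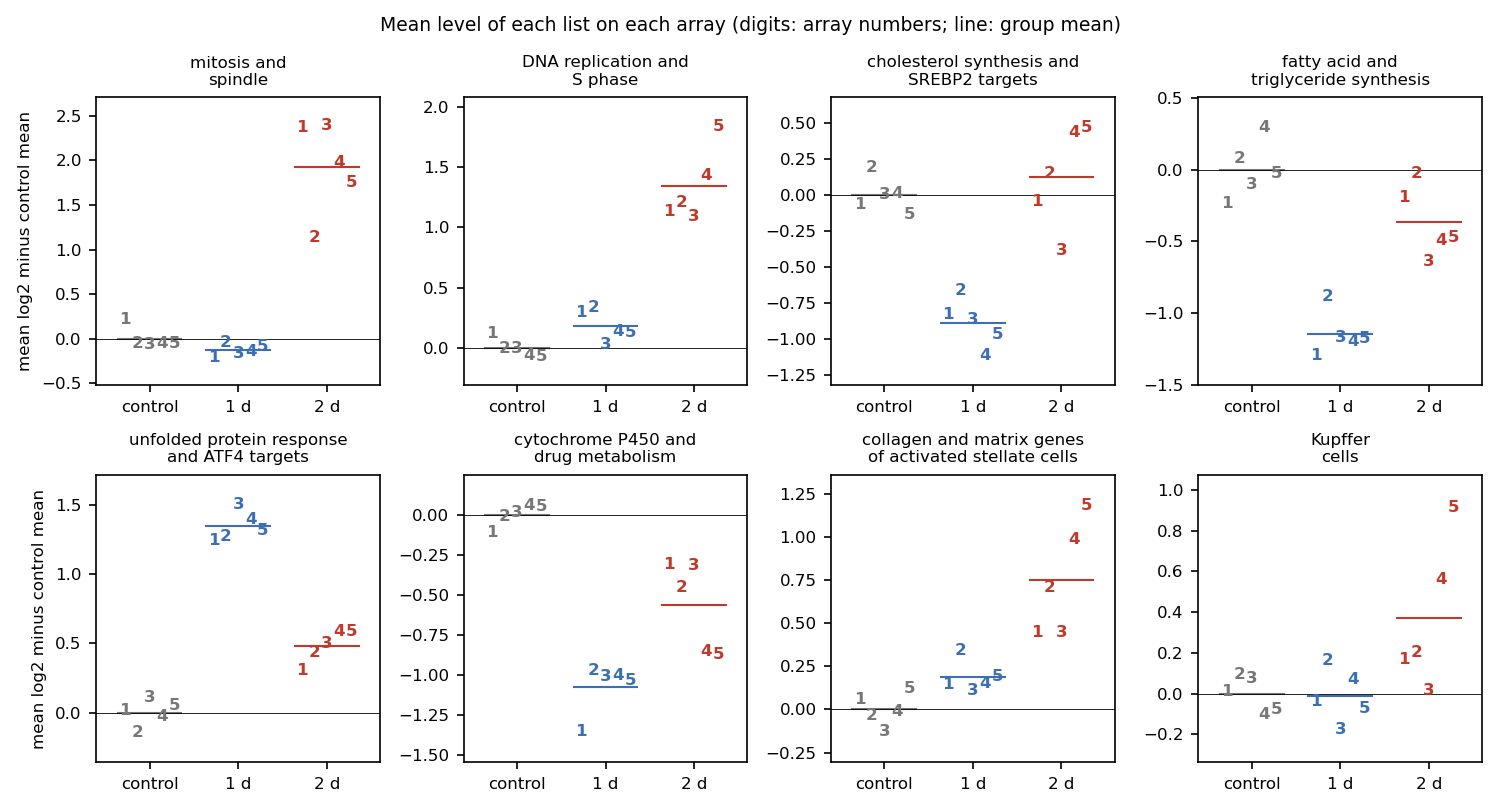
Mean level of 8 gene lists on each array, as log2 minus the control mean (y axes), in the control (grey), 1 d (blue) and 2 d (red) groups. Digits are array numbers and lines group means. The mitosis, S phase, cholesterol, fatty acid and P450 lists are higher on every 2 d array than on any 1 d array and the unfolded protein response list is lower on every 2 d array, whereas the Kupffer cell list overlaps.

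The stress program of the first day subsided. Of 30 genes of the unfolded protein response and ATF4 targets, 22 were called lower and 0 higher (median -0.49), beside 15.0% of all genes called lower, and the number above control went from 27 at 1 d to 17 at 2 d. Nupr1, a stress-induced chromatin protein, measured 9.66, 9.51, 12.35, 12.28 and 12.20 at 1 d and 6.69, 6.94, 6.97, 7.94 and 8.18 at 2 d. It fell by 3.85 ± 0.35 (14.4-fold, adjusted p 1.33e-11), and by 4.93 without arrays 1 and 2 at 1 d, which were the lowest of that group. Ddit3 (CHOP), the transcription factor of prolonged endoplasmic reticulum stress, measured 9.01, 9.05, 10.44, 10.72 and 10.07 at 1 d and 7.13, 7.33, 7.04, 7.53 and 7.35 at 2 d, near the control range of 6.77 to 7.15. Its fall was 2.58 ± 0.22 (adjusted p 2.20e-12). Trib3, a target of CHOP and ATF4, fell by 3.04 ± 0.35 and Chac1 by 1.69 ± 0.33. The chaperone Hspa5 (BiP) fell (-0.99), as did Atf4 itself (-0.57), the amino acid enzymes Psat1 (-1.55) and Asns (-1.03) and the cystine carrier Slc7a11 (-1.50). Xbp1 was not called (0.17).

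Heat shock proteins fell in 13 of 16 cases (81.2%, all genes 15.0%), with 1 (6.25%, all genes 17.4%), Cryab (0.50), higher and a median of -0.87. Without either pair of arrays that stood apart, 0 were called higher. Hspb1 (Hsp27) measured 10.35, 9.25, 13.31, 13.20 and 12.86 at 1 d and 8.32, 8.79, 8.15, 9.26 and 9.63 at 2 d. Array 2 at 1 d overlapped the 2 d range, and the fall was 2.96 ± 0.43, or 3.60 without that array and 4.29 without arrays 1 and 2. Hsph1 fell by 2.03 ± 0.40, Hspa8 by 1.22 ± 0.23 and Hspa1b by 2.44 ± 0.55. Hspa1b and Hspa1a are near-identical copies whose signals may not be separable. Of 21 Nrf2 targets and metallothioneins, 9 were called lower and 4 higher (median -0.22), and 7 higher without arrays 1 and 2 at 1 d. Mt1 and Mt2, the metal-binding metallothioneins, fell by 2.17 ± 0.68 and 1.95 ± 0.57, and Srxn1 (sulfiredoxin) by 2.21 ± 0.34. In contrast Gstm3, Gsta4 and Nfe2l2 (Nrf2 itself) rose by 1.72, 1.28 and 0.75, and Hmox1 was not called (0.09). Of 20 immediate early genes, 6 (30%) were called lower and 0 higher, beside 15.0% and 17.4% of all genes. Atf3 fell by 1.44 ± 0.32, Ier3 by 1.49 ± 0.36, Klf6 by 1.30 ± 0.37 and Dusp1 by 1.37 ± 0.42. Without arrays 1 and 2 at 1 d they fell by 2.06, 2.34, 2.00 and 2.16 (Atf3 by 2.05 without arrays 4 and 5 at 2 d). With only the 1 d and 2 d arrays in the fit each of these calls ended (adjusted p 0.0552 for Atf3, 0.0740 for Ier3 and 0.0638 for Klf6). The Dusp1 call also ended with a minimum fold of 1.2. Fos, Jun and Egr1 were not called (0.48, -0.31 and 0.79).

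Genes of ribosome assembly and of the proteasome had calls in the lower direction. Of 28 ribosome biogenesis genes, 17 (60.7%) were called lower and 0 higher (median -0.49), beside 15.0% and 17.4% of all genes. The number above control went from 24 at 1 d (all genes 25.0%) to 9 at 2 d (all genes 21.1%). Npm1 (nucleophosmin) measured 11.41 to 12.26 at 1 d and 10.08 to 10.89 at 2 d (-1.35 ± 0.13, adjusted p 6.60e-11). Ncl (nucleolin) fell by 1.06 ± 0.14 and Gnl3 by 1.09 ± 0.19. Of 32 proteasome subunits 16 (50%, all genes 15.0%) were called lower and 0 higher (median -0.28), led by Psmc6 and Psma5 (-0.71 ± 0.08 and -0.70 ± 0.08). Above control were 31 of the 32 at 1 d and 13 at 2 d. Of 21 cytosolic ribosomal proteins 7 (33.3%, all genes 15.0%) were called lower and 0 higher (median -0.10), and 20 were still above control at 2 d. With arrays 4 and 5 at 2 d left out 4 ribosomal protein genes were lower and 1 higher. Over the alternative settings 0 to 10 were called lower. Psmb8 and Psmb9, catalytic subunits of the proteasome counted here with interferon-induced genes, rose by 0.88 ± 0.11 and 1.34 ± 0.17 with no overlap. Of the 23 interferon-induced genes, 3 were called higher and 2 lower, with 7 higher without arrays 1 and 2 at 1 d and 5 lower without arrays 4 and 5 at 2 d.

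**Figure D4:**
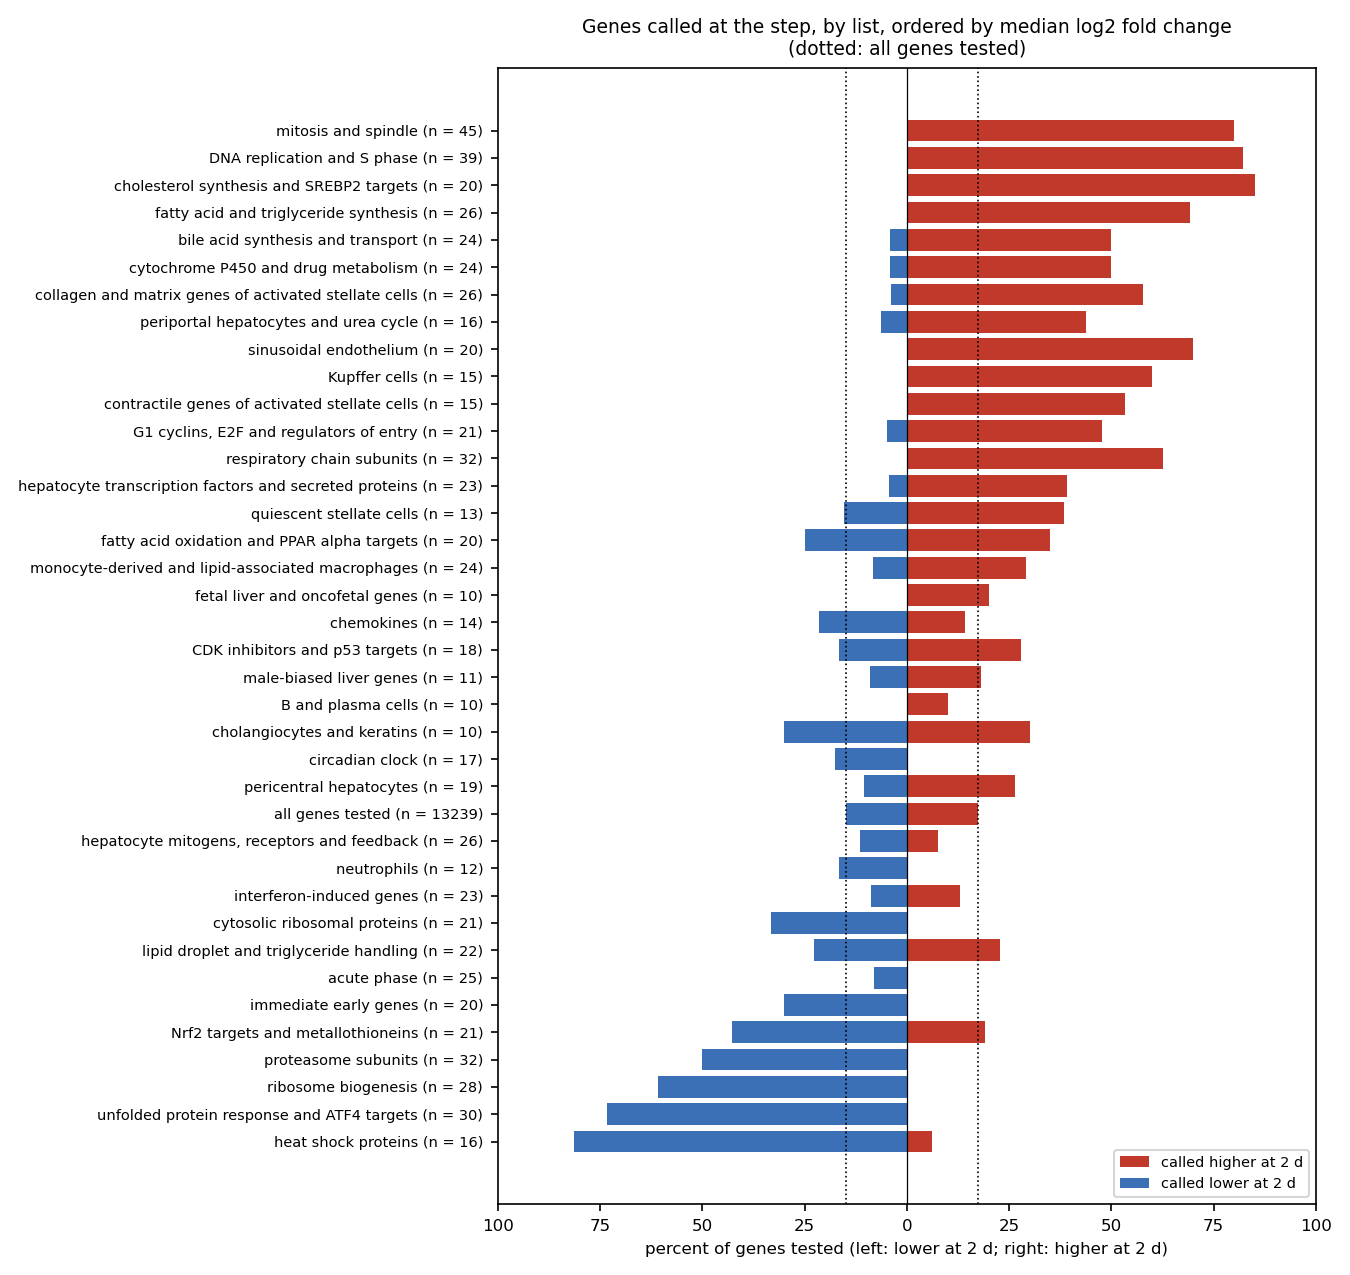
Share of each gene list called higher (right, red) and lower (left, blue) at 2 d than at 1 d, in percent of the genes tested (n beside each name), for all genes tested and the lists with at least 10 genes tested, T and NK cells and other lists under that size being left out. Dotted lines mark the shares over all genes tested, 17.4% and 15.0%. The cholesterol, S phase and mitosis lists have 80% or more of their genes called higher, and heat shock proteins 81.2% called lower.

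Genes of other liver cells also differed between the days. In whole liver, a rise can come from more cells of a type or more RNA per cell, and the 2 cannot be told apart. Of 26 collagen and matrix genes of activated stellate cells, 15 (57.7%) were called higher and 1 (3.85%), the collagenase Mmp13 (-1.15), lower (median 0.41). Of all genes, 17.4% were called higher and 15.0% lower. Col3a1 measured 7.16, 7.81, 6.96, 7.22 and 7.14 at 1 d and 8.96, 9.56, 9.15, 10.18 and 10.61 at 2 d (2.43 ± 0.30, adjusted p 2.39e-08), with all 2 d arrays above the control range of 6.91 to 8.24. Col1a2 rose by 1.63 ± 0.19, Col6a3 by 1.45 ± 0.14, Sparc by 1.21 ± 0.17 and Col1a1 by 0.90 ± 0.12. The protease inhibitor Timp1 was not called (0.21, interval -0.16 to 0.58). Of 15 contractile genes of activated stellate cells 8 (53.3%, all genes 17.4%) were called higher and 0 lower. Acta2 (alpha smooth muscle actin) measured 7.05 to 7.37 at 1 d and 7.85, 9.11, 7.82, 9.26 and 9.55 at 2 d, and Tagln, Fstl1 and Myl9 rose by 1.32, 1.35 and 1.22. Of 13 genes of quiescent stellate cells, 5 (38.5%) were called higher, led by Reln (1.03 ± 0.12), and 2 (15.4%) lower, beside 17.4% and 15.0% of all genes. Endothelial genes rose in 14 of 20 cases (70%, all genes 17.4%) with 0 falls (median 0.36), led by Plvap (0.77 ± 0.11), Flt4 (0.74 ± 0.09) and Stab1 (0.67 ± 0.12).

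Most called rises among macrophage genes ended without arrays 4 and 5 at 2 d. Of 15 Kupffer cell genes 9 (60%, all genes 17.4%) were called higher and 0 lower (median 0.35), but without those arrays 1 was called higher. The list's mean against control was 0.17, 0.20, 0.02, 0.56 and 0.92 on arrays 1 to 5 at 2 d and -0.18 to 0.16 at 1 d. C1qb, of complement C1, measured 8.44 to 8.98 at 1 d and 9.22, 9.13, 8.79, 10.17 and 10.32 at 2 d, a change of 0.87, and Vsig4 and Clec4f were called at 0.79 and 0.48. Without arrays 4 and 5 at 2 d none of these 3 was called (C1qb 0.39, Vsig4 0.47 and Clec4f 0.37, adjusted p 0.0606, 0.0759 and 0.0687). Clec4f without 1 d array 3 or 2 d array 5 had an adjusted p of 0.054 and 0.058. Of 24 genes of monocyte-derived and lipid-associated macrophages 7 (29.2%) were called higher and 2 (8.33%) lower, beside 17.4% and 15.0% of all genes. Without arrays 4 and 5 2 were higher and 5 lower. Cd14, the lipopolysaccharide co-receptor, fell by 1.74 ± 0.33 and the protease Ctsl by 0.97 ± 0.11. Lgals3 (galectin 3) measured 10.43, 9.71, 12.66, 12.46 and 12.41 at 1 d and 9.29, 9.98, 8.62, 12.27 and 12.10 at 2 d, against 6.10 to 6.48 in controls. It was not called (-1.08, adjusted p 0.0895), and without arrays 4 and 5 it fell by 2.24 (adjusted p 0.000138). It was also called without arrays 1 and 2 at 1 d (-2.06, adjusted p 0.000782) and without any 1 of those 4 arrays. The same 2 arrays had lower Cyp2e1 and Car3 and higher Col3a1 and Ccnd1 than arrays 1 to 3, and the part of macrophage number in any of these values was not tested.

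Lymphoid and neutrophil genes gave few calls. Where a count of 0 in 1 direction is given for the mitosis, S phase, cholesterol, fatty acid, unfolded protein response, ribosome biogenesis, proteasome, Kupffer or acute phase lists, the count in that direction at an unadjusted p under 0.05 in limma was 0 as well, whereas it was 1 for endothelial genes (lower), immediate early genes (higher) and cytosolic ribosomal proteins (higher). Of 12 neutrophil genes 2 (16.7%), S100a9 (-1.14 ± 0.34) and Il1r2 (-0.28), were called lower, beside 15.0% of all genes. Called higher were 0, and 4 were lower without either pair of arrays that stood apart. The Il1r2 call ended without 1 d array 3, 4 or 5 (adjusted p 0.0585, 0.0611 and 0.0928). S100a9 fell by 2.05 without arrays 1 and 2 at 1 d, and its call ended with only the 1 d and 2 d arrays in the fit. S100a9 on arrays 1 and 2 at 1 d (6.81 and 7.04) was within its 2 d range of 6.84 to 7.68 or just below it, and was 9.04 to 9.37 on arrays 3 to 5. Of 8 genes of T and NK cells 0 were called at an adjusted p under 0.05 in limma, with changes of -0.22 to 0.15, and 1 was lower at an unadjusted p under 0.05. Of 10 genes of B and plasma cells 1, Bank1 (0.47), was called, with 1 more lower without arrays 1 and 2 at 1 d and 2 higher without arrays 4 and 5 at 2 d. Erythroid genes gave 0 calls of 4 in limma, with 1 higher at an unadjusted p under 0.05, and exocrine pancreas genes 1 call in each direction of 6. Without arrays 4 and 5 at 2 d 2 erythroid genes were higher, and without arrays 1 and 2 at 1 d 2 pancreas genes were lower. Among 10 cholangiocyte and keratin genes 3 were called higher and 3 lower (30% each, beside 17.4% and 15.0% of all genes). Krt8 and Krt18, keratins also of hepatocytes, were called at -0.91 and -0.89, and Krt8 was not called without arrays 1 and 2 at 1 d (-0.55, adjusted p 0.104). Pkhd1, the fibrocystin gene, rose by 2.01 ± 0.20.

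Few acute phase genes were called at the step. Of 25 genes 0 were called higher and 2 (8%), Crp (-0.45) and Orm3 (-0.29), lower, beside 17.4% and 15.0% of all genes. Above control were 17 at 1 d (all genes 25.0%) and 16 at 2 d (all genes 21.1%). The number called lower was 4 without arrays 1 and 2 at 1 d, and without arrays 4 and 5 at 2 d 3 were. Both calls ended when single arrays were left out (8 of 10 arrays for Crp and 6 for Orm3, adjusted p 0.0534 to 0.162 and 0.0867 to 0.161), and without arrays 4 and 5 at 2 d (adjusted p 0.139 and 0.0823). Saa1 measured 10.66, 14.05, 13.86, 14.24 and 14.20 at 1 d and 11.90, 13.06, 12.74, 13.47 and 13.60 at 2 d, a change of -0.45 with a 95% interval of -1.86 to 0.96. Without arrays 1 and 2 at 1 d the change of Saa1 was -1.14 (adjusted p 0.254). Lcn2 (lipocalin 2) was 8.43 on array 1 and 11.01 to 12.59 on the other arrays at 1 d. Its change was -0.64, with an interval of -2.26 to 0.97, and -1.67 without arrays 1 and 2 at 1 d (adjusted p 0.139). Saa1 and Saa2 are close copies whose probe sets may share signal. Of 14 chemokines 2 (14.3%) were called higher and 3 (21.4%) lower, beside 17.4% and 15.0% of all genes. Ccl9 rose by 1.99 ± 0.19 with no overlap, Cxcl12 by 0.89 ± 0.17, and Cxcl2 and Ccl5 fell by 1.14 and 0.63. Without array 3 at 1 d the adjusted p of Cxcl2 was 0.0609. Of 17 clock genes 3 (17.6%), Cry1 (-1.58 ± 0.32), Nfil3 and Per1, were called lower, beside 15.0% of all genes, and 0 higher. The Nfil3 call ended when any of 6 single arrays was left out (adjusted p 0.0552 to 0.0831). It also ended without arrays 4 and 5 at 2 d together (adjusted p 0.162). The sources used here do not give the hour of tissue collection. Of 10 fetal liver genes 2 (20%) were called higher, beside 17.4% of all genes. Lgals1 (galectin 1) rose by 2.29 ± 0.18, and Afp (alpha-fetoprotein) measured 8.87, 7.90, 9.10, 6.09 and 6.74 at 2 d against 5.45 to 6.77 at 1 d (1.78 ± 0.32), with a change of 2.66 without arrays 4 and 5.

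The lead lists can also be placed in the time course. The mean level of the mitosis list against control was -0.21 ± 0.05 (SD, n = 5) at 8 h, -0.13 ± 0.07 at 1 d, 1.93 ± 0.52 at 2 d and 0.82 ± 0.18 at 4 d. For S phase genes it was -0.17 ± 0.05, 0.19 ± 0.13, 1.34 ± 0.31 and 0.24 ± 0.09 at the same times. For cholesterol synthesis it was already -1.07 ± 0.28 at 8 h, and then -0.89 ± 0.17, 0.12 ± 0.36 and 0.15 ± 0.14. Fatty acid synthesis stood at -0.55 ± 0.12 at 8 h and -1.14 ± 0.15 at 1 d and passed from -0.37 ± 0.25 at 2 d to 0.20 ± 0.16 at 4 d. The means of these lists outside the step are given as levels, with no test.

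**Figure D5:**
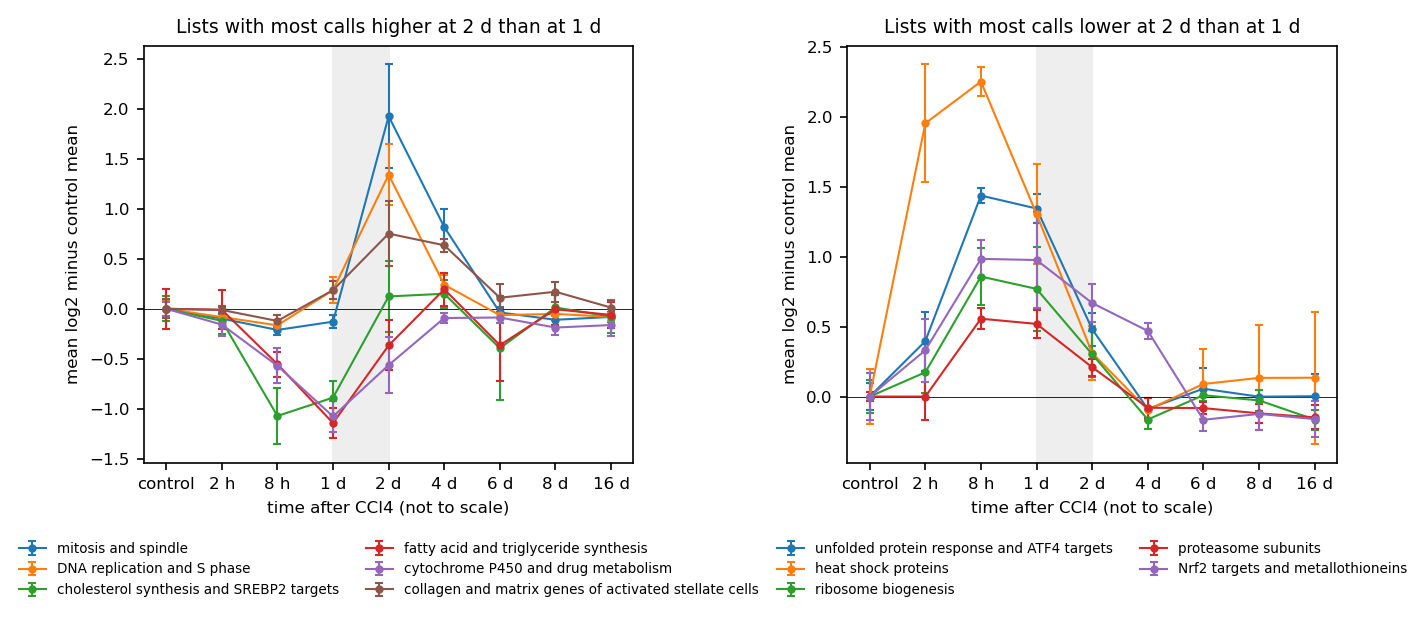
Mean level of 11 gene lists against control (y axes, log2) over the time course (x axes, not to scale), as group means with SD over 5 arrays (6 at 16 d). The grey band is the step from 1 d to 2 d. Mitosis and S phase lists peak at 2 d, the cholesterol and fatty acid synthesis lists are below 0 at 8 h and 1 d and higher at 2 d, and the stress, ribosome biogenesis and proteasome lists return toward 0.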

How the data were processed

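Liver RNA was hybridised to 46 Affymetrix arrays in 9 groups, and 0 array columns were left unused. The values are log2 expression that the authors deposited, made with RMA in oligo 1.52.0 per the submitters' processing notes. RMA normalizes quantiles between arrays, so shifts common to most genes are removed. Of 45101 probe sets, 64 were controls, 34945 named 1 gene, 932 several and 9160 none, and 34741 were matched by Entrez ID. Genes on fewer than 5 arrays above the median of all values (5.55823) were left out (4954 of 18193). All 46 arrays entered 1 limma fit of group means (limma 3.58.1, R 4.3.3, lmFit and eBayes, 37 residual degrees of freedom) with Benjamini-Hochberg adjustment over the 13239 genes, and genes with an adjusted p under 0.05 were called. Intervals are 95%. Tables and plots were made with pandas 2.3.3 and matplotlib 3.10.9 in Python 3.11.15.

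Simulated arrays with 200 changed genes among 13239 gave 86.6%, 98.5% and 100% recovery at 1.5, 2 and 4-fold, and 4.52% of calls were false. Their noise was independent between genes and of equal spread in all groups, without arrays that stand apart. These rates therefore need not hold for the deposited arrays. The comparison and the 42 gene lists (977 genes, 892 on the array, 803 tested) were chosen with earlier results of these data known. Named genes are the 10 largest called rises and falls without overlap, up to 4 largest called members of each list, and a panel of 62 genes of which 56 were tested, 179 in all. Other list members named in the text were chosen after their values were seen. Genes that the probe table does not pair with a probe set are not analysed here. Values of Rrm2, Mcm5, Cdc20, Nupr1, Trib3, Srxn1, Mt1, Hspa8, Acta2, Krt8, Ghr, Fmo5, Acly, Ccne1 and Upp2 come from probe sets that may also read near-identical copies and are uncertain in that respect. Alternatives changed the normalization, filter, probe set rule, variance model, samples in the fit, and arrays left out.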

Additional observations from a re-analysis of the deposited data

Results flagged for a closer look

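In 28 of 358 groups of 5 arrays, 1 array lay far from the other 4, with a gap to its neighbour over the whole range above Dixon's value of 0.71. Chance alone flags about 1 in 20 groups. Of these, 12 were array 1 at 1 d and 12 were array 2 at 1 d, and arrays 2 and 5 at 2 d had 2 each.

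Array 1 at 1 d was higher than the other 1 d arrays for Fgf21 (8.92), Plin2 (13.6), Utp4 (9.53), Psmc6 (10.6), Krt18 (12.8) and Pcna (10.5). It was lower for Acss2 (6.08), Rgn (8.53), Pck1 (7.63, the others 11.6 to 12.1), Fmo5 (7.48), Igfals (6.76) and Saa1 (10.7, the others 13.9 to 14.2).

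Array 2 at 1 d was higher for Tk1 (7.30), Cd36 (7.70), Cyp7a1 (8.07, the others 5.45 to 5.99), Aldh1b1 (8.28, the others 5.02 to 5.92), Fstl1 (6.44), Bank1 (6.11), Prom1 (6.11), Lgals1 (8.68) and Ccnd1 (9.21). It was lower for Chac1 (6.57), Cd14 (7.87) and Rpl8 (11.5).

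At 2 d, array 5 was the highest for Prim1 (8.96) and Clec4f (9.16), and array 2 was the lowest for Klf6 (6.77) and the highest for Rpl37 (10.0).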

How the results depend on the processing

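The 2301 genes called higher and 1982 called lower moved by over 1.5 times under 3 settings: 1338 and 1049 with only the 1 d and 2 d arrays in the fit, 834 and 532 with a minimum fold of 1.2, and 1280 and 1008 with the replicate block. The labels do not say what the replicate numbers mean. Same-numbered arrays had correlated deviations of -0.04, 0.34, 0.05, 0.11 and 0.04, which are not all over 0.1, so the numbers were not taken as pairs, although 1 d arrays 2 to 5 each correlated best with the 2 d array of their own number and only array 1 did not (best with array 5). Leaving out 1 array gave 1995 to 2537 higher and 1747 to 2167 lower. Other normalizations, filters, probe set rules and variance models gave 2159 to 2651 higher and 1943 to 2156 lower. Under all 24 settings 32 to 43 mitosis genes, 25 to 36 S phase genes, 13 to 17 cholesterol genes and 13 to 19 fatty acid genes were called higher. Other lists varied more, with 3 to 25 respiratory chain subunits, 5 to 14 endothelial genes and 1 to 10 Kupffer cell genes called higher. Called lower were 7 to 22 proteasome subunits, 9 to 20 ribosome biogenesis genes and 0 to 10 cytosolic ribosomal proteins. Leaving out arrays 4 and 5 at 2 d, chosen after seeing the data, gave 2163 higher and 1890 lower, and ended the call of 24 of 179 named genes. The replicate block ended 36 such calls, the 2-group fit 38 and the minimum fold 48. The Results above give these for some genes only. The calls of Ghr, Ccnd1 and Scd1 ended in both the 2-group fit and the replicate block. That of Fmo5 ended in the replicate block and that of Ccl5 in the 2-group fit. Among the 179 named genes, no gene called in the reported fit changed sign under any of these settings. The sign of other called genes was not checked. Of the named genes not called, Cdkn1a, Srebf2, Cyp2e1, Alb, Hmox1 and Timp1 had values on both sides of 0 (Cyp2e1 -0.96 to 0.23, Cdkn1a -0.22 to 0.25, Hmox1 -0.31 to 0.23 and Timp1 -0.27 to 0.35). Values near background compress fold changes of low genes.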

Other observations

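Host genes of small nucleolar RNAs were looked at after their values had been seen. Of 16 on the array 15 were tested, and 10 were called lower at 2 d (15.0% of all genes) and 1, Snhg11 (0.34), higher. Snhg12 fell by 2.31 ± 0.30, Snhg1 by 1.54 ± 0.24, Zfas1 by 1.42 ± 0.17, Gas5 by 1.32 ± 0.13 and Snhg6 by 1.29 ± 0.15. For 4 of the 10 called lower the arrays of both days did not overlap, beside 748 of the 1982 called lower over all genes tested. At 1 d 10 of the 15 were above control (all genes 25.0%), and at 2 d 4 were (all genes 21.1%).

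Outside the lists, and chosen for their size, several liver enzymes that were far below control at 1 d rose at the step. Inmt (indolethylamine N-methyltransferase) rose by 2.56 ± 0.27 from 4.01 below control, Hnmt (histamine N-methyltransferase) by 2.52 ± 0.25, the carboxylesterase Ces1g by 2.33 ± 0.22, Papss2 (sulfate donor synthesis) by 1.98 ± 0.24 and Gamt (creatine synthesis) by 1.92 ± 0.20. Further genes of division rose as well, among them Shcbp1 (3.28 ± 0.19), Cenpq (2.79 ± 0.14), the kinase Chek1 (1.99 ± 0.13) and the histone methyltransferase Ezh2 (1.64 ± 0.12). Among the falls were the autophagy receptor Sqstm1 (-1.62 ± 0.18), Srm, spermidine synthase (-1.36 ± 0.14), and the importin Ipo4 (-1.36 ± 0.15).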
